A study of Dugesia japonica with 16 samples.

Results

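The 100 most abundant components were followed across 16 RNA-seq libraries of the freshwater planarian *Dugesia japonica*. A component is a group of transcripts that the assembler kept together, recognised by the stem of the identifier that they share. The transcript abundances (TPM, length-corrected abundance relative to the library total) were summed within each component, and the 100 were chosen by the highest mean of this sum in the 4 vehicle libraries, from 16873 components in all. All 100 were above 0 in every library and passed the filter for testing, which kept 15762 components with at least 1 TPM in at least 4 libraries. Because the vehicle level chose these components, every comparison of their level with vehicle is a description, and calls against vehicle are counted beside those of all components without anything being read from them.

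Libraries came in 4 groups of 4, and the worms of every group had been kept at 20 °C, starved for 7 days and cut behind the eyes. The posterior pieces, which regrow a head, were exposed in water to 10 nM MCTR3, to 10 nM PCTR3, to 10 nM RCTR3 or to vehicle, 0.1% ethanol, until polyadenylated RNA was taken at 48 h. The compounds are cysteine-carrying conjugates of the maresin (MCTR3), protectin (PCTR3) and resolvin (RCTR3) families, lipid mediators made from docosahexaenoic acid, and they differ in the positions of the cysteinyl and hydroxyl groups and in an additional hydroxyl group on RCTR3. The labels do not say whether the libraries of a group came from separate batches of worms, so the p-values rest on a spread between libraries that could be technical alone. Vehicle and MCTR3 libraries carry the numbers 1 to 8 and PCTR3 and RCTR3 libraries 9 to 16, so treatment and position in this numbering cannot be told apart wherever PCTR3 or RCTR3 is set against MCTR3 or vehicle.

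In most tissues a small number of transcripts makes up a large part of the messenger RNA, typically those for ribosomal proteins, the cytoskeleton, energy metabolism and the main products of secretory cells. Planarians regenerate from a population of dividing stem cells, the neoblasts, and much of the body consists of muscle, gut, epidermis and secretory cells. In a measure that is relative to the library total, a fall in a few very abundant transcripts raises the share of all others, so each component is given on 2 scales: its share of the library total in percent, and its multiple of the median tested component. Identifiers come without gene names, so no function is given to any component, and fewer cells of a type cannot be told apart from less RNA per cell.

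Mean levels in vehicle ran from 18655 TPM for the highest of the 100 down to 1556 TPM for the lowest, with a median of 2218 TPM. In no library was any of these components under 741 TPM, and the median tested component lay between 15.7 and 16.3 TPM in every library. The limit of the list falls in a dense stretch: ranks 99 and 100 averaged 1579 ± 24.1 and 1556 ± 144 TPM (SD, n = 4 vehicle libraries), and the next 2, just outside, averaged 1552 ± 133 and 1544 ± 128 TPM. The means on either side of the limit, at rank 100 and the one after it, differed by less than the SD of each.

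Deposited values summed to between 926 and 1129 kTPM per library, and the sums differed by group. They averaged 1013 ± 9.78 kTPM in MCTR3, 973.9 ± 15.8 in PCTR3, 952.6 ± 18.0 in RCTR3 and 1065 ± 43.8 in vehicle (SD, n = 4 each). All PCTR3 and RCTR3 sums were below all MCTR3 and vehicle sums. The shares were taken after each library had been brought to the same sum, which raises PCTR3 and RCTR3 relative to the other groups. For all components, the median log2 change of RCTR3 against vehicle was 0.15 by share and 0.008 on deposited TPM. Read depth is unknown. One library stood apart somewhat from the other 3 of its group. Of the 400 combinations of component and group, 27 had a highest or lowest library whose gap to its neighbour exceeded Dixon's 95% critical value for 4 samples, which chance passes in about 1 in 20. RCTR3 replicate 2 accounted for 9 of them (3 above and 6 below), vehicle replicate 4 for 5 and MCTR3 replicate 4 for 4. Without RCTR3 replicate 2, 48 of the 100 components passed the test described below in RCTR3 against MCTR3, against 45 with it. For PCTR3 against MCTR3 the counts were 44 without it and 34 with it. It enters the PCTR3 comparison through the shared estimate of spread, and the shares of all components without it are not given.

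Together the 100 components held a smaller part of the summed TPM in PCTR3 and RCTR3 worms than in MCTR3 or vehicle worms. The vehicle level chose the list, which favours a high sum in vehicle, so the vehicle values here are a description only. Their summed share of the library total was 30.2%, 30.4%, 30.2% and 30.1% in the MCTR3 libraries, 28.4%, 28.4%, 29.3% and 29.4% in the PCTR3 libraries, 28.1%, 27.97%, 29.0% and 28.8% in the RCTR3 libraries, and 31.2%, 31.2%, 30.3% and 32.0% in the vehicle libraries. Every PCTR3 and RCTR3 library was below every MCTR3 and vehicle library, while MCTR3 and vehicle overlapped. Group means were 30.2 ± 0.125% in MCTR3, 28.9 ± 0.542% in PCTR3, 28.5 ± 0.510% in RCTR3 and 31.2 ± 0.695% in vehicle (SD, n = 4 each).

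The difference was spread unevenly over the ranks. Components ranked 11 to 25 held 5.30 ± 0.203% in PCTR3 and 5.09 ± 0.220% in RCTR3, against 5.94 ± 0.0287% in MCTR3 and 6.23 ± 0.117% in vehicle, with no PCTR3 or RCTR3 library reaching the lowest MCTR3 library. Ranks 26 to 50 held 6.17 ± 0.0662% in PCTR3 and 6.11 ± 0.0694% in RCTR3, against 6.19 ± 0.0216% in MCTR3 and 6.34 ± 0.150% in vehicle, and here the compound groups overlapped. The first 10 held 9.02 ± 0.298% in PCTR3 and 8.99 ± 0.368% in RCTR3, against 9.30 ± 0.193% in MCTR3 and 9.71 ± 0.443% in vehicle, again with overlap. Ranks 51 to 100 held 8.39 ± 0.154% in PCTR3 and 8.26 ± 0.113% in RCTR3, against 8.78 ± 0.0906% in MCTR3 and 8.92 ± 0.0963% in vehicle, and there both groups lay below every MCTR3 library. Outside the list the next 100 components followed the same order, at 10.0 ± 0.132% in PCTR3 and 9.91 ± 0.100% in RCTR3, against 10.4 ± 0.0504% in MCTR3 and 10.6 ± 0.209% in vehicle. The 800 components after those held 23.2% in every group.

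**Figure D1:**
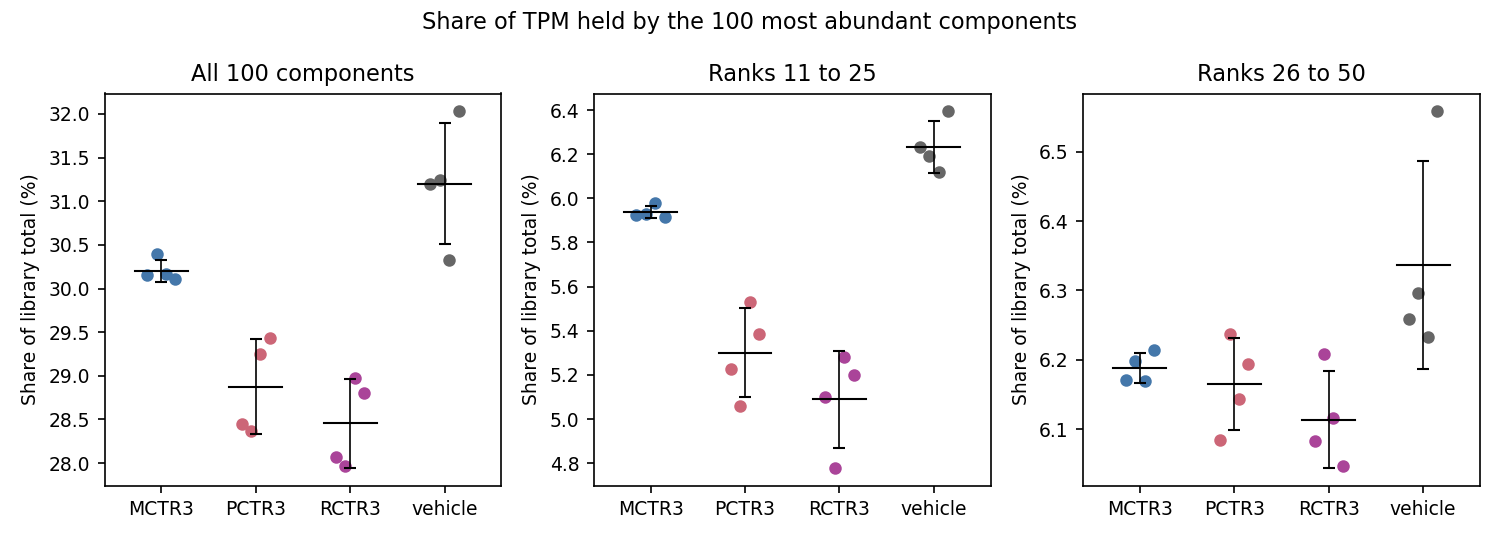
Share of the library total in percent (vertical axis, not starting at 0) held by all 100 components, by ranks 11 to 25 and by ranks 26 to 50, for MCTR3, PCTR3, RCTR3 and vehicle. Points are libraries, horizontal lines are group means and error bars are SD (n = 4); PCTR3 and RCTR3 libraries lie below all others in the first and second panels and overlap MCTR3 in the third.

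The summed difference hides movement in both directions. Between PCTR3 and MCTR3 the net difference was -1.33 percentage points, made of -2.57 points over 66 components with a lower mean and +1.245 points over 34 with a higher mean. The 10 components with the greatest falls gave -1.24 points, of which the component at rank 1 gave -0.260 and that at rank 4 gave -0.201. The greatest gains were 0.201 points at rank 3 and 0.174 points at rank 20. RCTR3 against MCTR3 showed a net -1.75 points, made of -2.90 over 71 components and +1.15 over 29, again with the greatest fall at rank 1 (-0.235) and the greatest gain at rank 3 (0.253). Between PCTR3 and RCTR3 the net was 0.421 points, with the greatest gain at rank 10 (0.119).

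The list itself changed little in the compound groups. Ranked by their own group mean, 97 of the 100 components were also among the 100 highest of MCTR3, 91 among those of PCTR3 and 90 among those of RCTR3. The farthest any of them dropped was to rank 116 in MCTR3, 163 in PCTR3 and 165 in RCTR3. Single libraries shared 97 to 99 of the 100 in MCTR3, 85 to 95 in PCTR3, 87 to 91 in RCTR3 and 93 to 99 in vehicle. Of the first 10, all 10 stayed among the first 10 in MCTR3 and RCTR3 and 9 in PCTR3. Of the first 25, 24 stayed among the first 25 in MCTR3, 21 in PCTR3 and 20 in RCTR3.

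These components were simpler in the assembly than most. A single transcript made up 81 of the 100 (81%), against 87% of the next 100 in rank, 72.5% of the 800 after those and 54.5% (8590) of all components tested. The 100 components held 150 transcripts, and the most in any was 12. Their spread between libraries of the same compound group, as the SD of the log2 share pooled over MCTR3, PCTR3 and RCTR3, had a median of 0.0978, against 0.0979 for the next 100, 0.100 for the 800 after those and 0.131 for all components tested. The part of this narrower spread in the number that passed a test was not tested.

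Among the 100 the spread ran from 0.0236 to 0.420. At the narrow end, comp124809_c0 (rank 52) took 0.202%, 0.204%, 0.207% and 0.206% of the total in PCTR3, 0.202%, 0.206%, 0.204% and 0.202% in RCTR3, 0.199%, 0.206%, 0.203% and 0.211% in MCTR3, and 0.205%, 0.209%, 0.205% and 0.212% in vehicle. This component, chosen after its values were seen, sat within a range of 0.199% to 0.212% over all 16 libraries. At the wide end, comp123851_c0 (rank 10, likewise chosen after its values were seen) took 0.667%, 0.720%, 0.720% and 0.721% in PCTR3, 0.770%, 0.259%, 0.655% and 0.668% in RCTR3, 0.565%, 0.614%, 0.528% and 0.572% in MCTR3, and 0.596%, 0.564%, 0.559% and 0.666% in vehicle. The low RCTR3 value belonged to replicate 2, and the other 3 RCTR3 libraries overlapped PCTR3. Next in spread, comp145383_c0 (rank 9) took 0.503%, 0.800%, 0.500% and 0.590% in PCTR3, 0.636%, 0.393%, 0.659% and 0.773% in RCTR3, 0.538%, 0.530%, 0.480% and 0.478% in MCTR3, and 0.725%, 0.703%, 0.442% and 0.531% in vehicle. Its groups overlapped throughout, with RCTR3 replicate 2 the lowest value of all, and it too was singled out after its values were seen.

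Choosing components for a high level in the vehicle libraries favours lower values in any other group, so what follows against vehicle only describes these libraries. By group means of the share, 53 of the 100 had both PCTR3 and RCTR3 below MCTR3 and MCTR3 below vehicle, and 17 had the opposite order. As multiples of the median component these numbers were 76 and 3. The limma fit covered all components (two-sided, Benjamini-Hochberg over 15762, threshold 0.05) on log2 of the share (as parts in 1000000) plus 1. In MCTR3 against vehicle 0 of the 100 passed, where 0% of all components did. An unadjusted p under 0.05 in limma was found for 7 of the 100 and 11.95% of all components. In PCTR3 against vehicle 12 passed as higher, where 32.1% of all components did, and 42 as lower, where 10.4% did. In RCTR3 against vehicle 12 passed as higher, where 38% did, and 47 as lower, where 11.2% did. Since the vehicle level chose the list, nothing is read from these counts.

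The same description was made relative to the median component. The median component itself stood at 15.7 ± 0.282 parts in 1000000 in MCTR3, 16.6 ± 0.389 in PCTR3, 16.9 ± 0.396 in RCTR3 and 14.98 ± 0.554 in vehicle, so on the share scale the median change of all components was 0.06 for MCTR3, 0.12 for PCTR3 and 0.15 for RCTR3 against vehicle (log2). After division by the median component, 0 of the 100 passed in MCTR3 (0% of all). An unadjusted p under 0.05 in limma was found for 18 of the 100 and 9.50% of all components. In PCTR3, 3 passed as higher (17.3% of all) and 59 as lower (22.3% of all). In RCTR3, 2 passed as higher (20.2% of all) and 66 as lower (24.7% of all). For the 100 components the median log2 change against vehicle was -0.04 in MCTR3, -0.10 in PCTR3 and -0.14 in RCTR3 by share, and -0.11, -0.25 and -0.32 in the same order relative to the median component.

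For MCTR3 against vehicle the naming rule picked 1 component on each side, again as a description. Neither passed. Over the alternatives the limma adjusted p ran from 0.22 to 0.93 for the lower one and from 0.36 to 0.93 for the higher one. comp67399_c0 (rank 97), on the lower side, had 0.120%, 0.142%, 0.130% and 0.129% in MCTR3 and 0.146%, 0.147%, 0.141% and 0.169% in vehicle. One MCTR3 library lay inside the vehicle range. On the higher side comp140138_c0 (rank 79) had 0.200%, 0.194%, 0.205% and 0.193% in MCTR3 and 0.185%, 0.187%, 0.164% and 0.150% in vehicle. Every MCTR3 library was above every vehicle library.

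The differences between compounds did not use the vehicle levels that chose the list, and the dose and time were the same. Between MCTR3 and vehicle, however, 0% of all components passed. Choosing on the vehicle level may therefore also favour components that are high in MCTR3. The vehicle libraries entered these tests through the shared estimate of spread. All 3 pairs of compounds were compared, for every component, with p-values adjusted over all 15762 components within a pair. PCTR3 against MCTR3 left 34 of the 100 past the threshold by share, 7 higher and 27 lower, where 13.2% of all components passed as higher and 5.63% as lower. RCTR3 against MCTR3 left 45, 8 higher and 37 lower, where 21.8% of all passed as higher and 8.11% as lower. The 100 thus held more lower calls and fewer higher calls than components in general. How far the choice by vehicle level contributes to this was not tested. Median log2 changes of the 100 were -0.09 for PCTR3 and -0.12 for RCTR3 against MCTR3, beside 0.05 and 0.09 for all components tested.

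**Figure D2:**
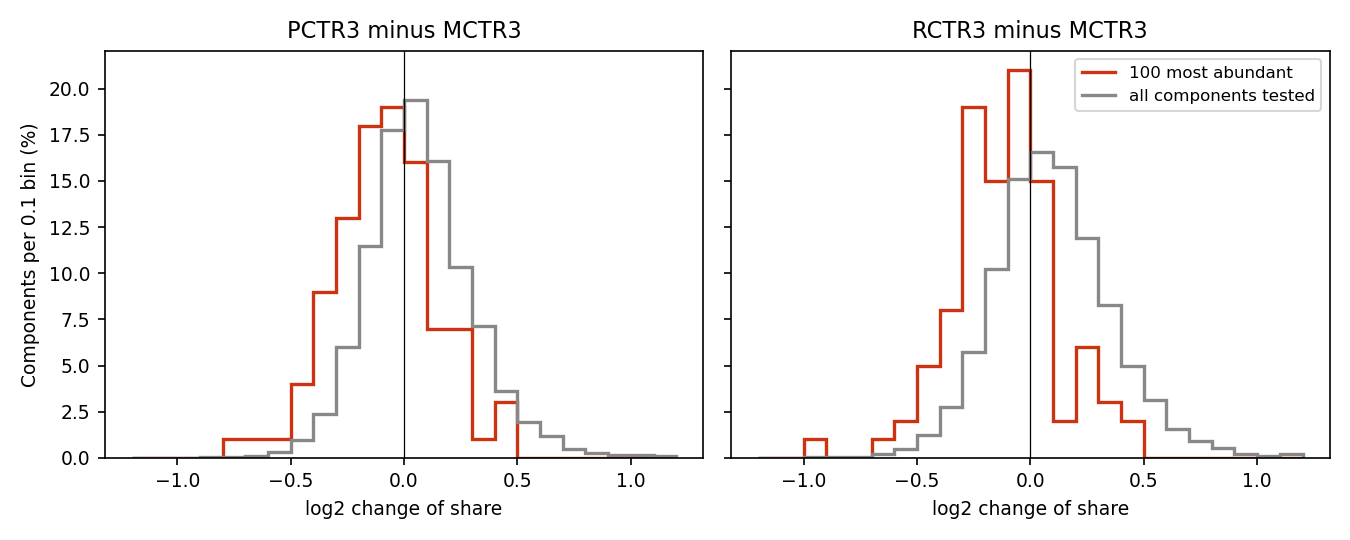
Distribution of the log2 change of share (horizontal axis, bins of 0.1) for PCTR3 minus MCTR3 and RCTR3 minus MCTR3, in percent of components per bin (vertical axis), for the 100 most abundant components and for all 15762 tested; changes outside the plotted range are not drawn. The curve of the 100 lies to the left of that of all components, with medians of -0.09 and -0.12 against 0.05 and 0.09.

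This lean was not confined to the 100. Among the next 100 in rank, PCTR3 against MCTR3 gave 4 higher and 25 lower, and RCTR3 against MCTR3 gave 7 higher and 32 lower. Of the 800 components after those, 66 were higher and 147 lower in PCTR3, and 106 were higher and 197 lower in RCTR3, both against MCTR3. Within the 100, ranks 11 to 25 had 1 higher and 7 lower in PCTR3 and 0 higher and 8 lower in RCTR3. Ranks 26 to 50 were closest to balance, with 5 higher and 7 lower in PCTR3 and 5 higher and 9 lower in RCTR3. Ranks 1 to 10 had 0 higher and 1 lower in PCTR3 and 1 higher and 3 lower in RCTR3. At ranks 51 to 100 there were 1 higher and 12 lower in PCTR3 and 2 higher and 17 lower in RCTR3.

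The split depended on the scale. Relative to the median component, 42 of the 100 passed in PCTR3 against MCTR3, 2 higher (8.34% of all) and 40 lower (11.7% of all), so that 95.2% of the calls were lower, against 79.4% by share. In RCTR3 against MCTR3, 54 passed on that scale, 2 higher (12.3% of all) and 52 lower (16% of all), so that 96.3% were lower, against 82.2% by share. On deposited TPM without rescaling, PCTR3 against MCTR3 gave 2 higher (9.48% of all) and 33 lower (9.45% of all), and RCTR3 against MCTR3 gave 2 higher (13.5% of all) and 48 lower (14.3% of all), so that 94.3% and 96.0% of the calls were lower. Beyond 1.5-fold by share there were 2 components in each of these comparisons, at ranks 13 and 94. Relative to the median component there were 3 in PCTR3 and 7 in RCTR3. By share, the count of the 100 that passed in PCTR3 against MCTR3 was 17 without PCTR3 replicate 2 and 18 without MCTR3 replicate 3. With all libraries, 34 of the 100 and 18.8% of all components passed in this comparison by share. The share of all components without those libraries is not given, so 17 and 18 cannot be set against 18.8%.

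**Figure D3:**
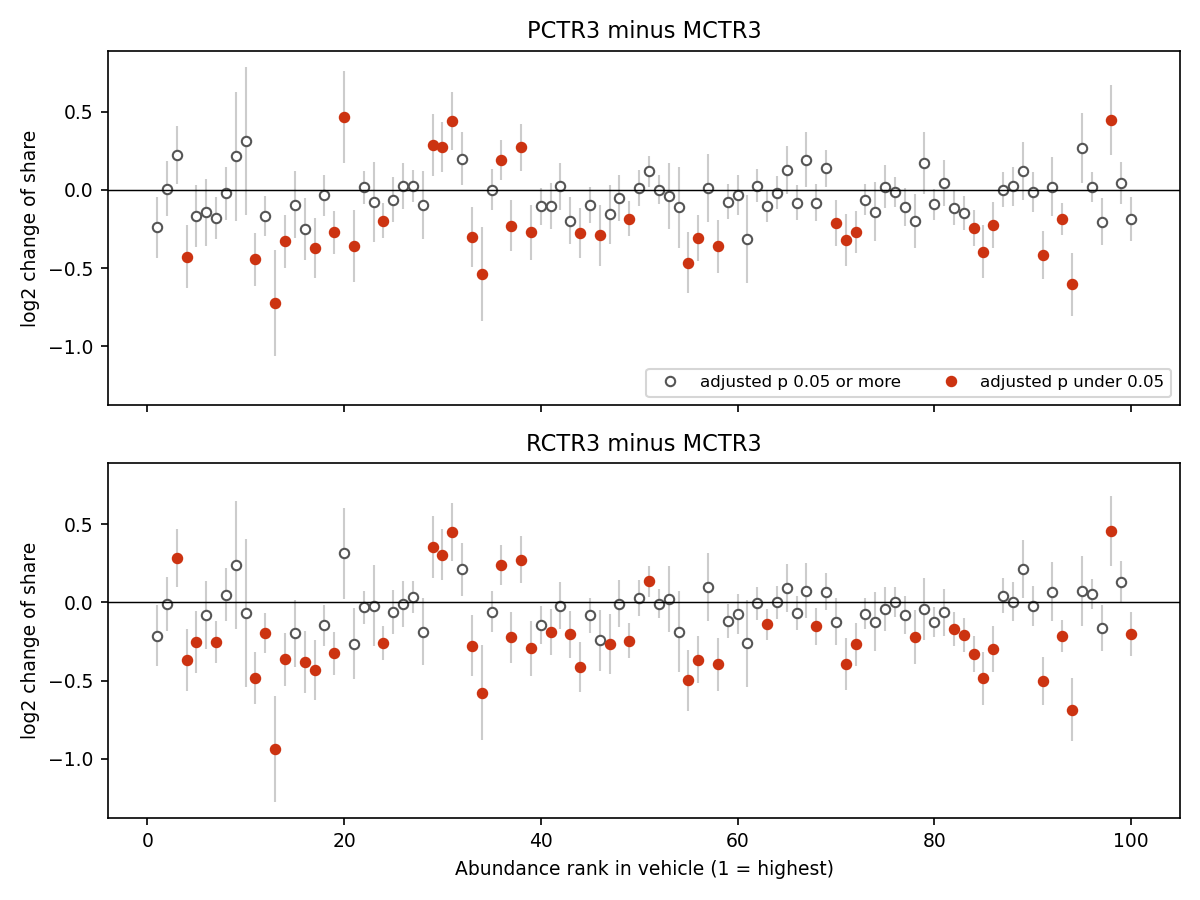
log2 change of share (vertical axis) for PCTR3 minus MCTR3 and RCTR3 minus MCTR3, for each of the 100 components in order of abundance in vehicle (horizontal axis, 1 is the highest). Vertical lines are 95% intervals from the limma fit and filled points passed an adjusted p of 0.05; 27 filled points are below 0 in the upper panel and 37 in the lower.

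By log2 change of share, the greatest fall from MCTR3 in both PCTR3 and RCTR3 was that of comp67611_c0, of 1 transcript, at rank 13. It took 0.222%, 0.181%, 0.310% and 0.284% of the total in PCTR3, 0.192%, 0.154%, 0.266% and 0.249% in RCTR3, 0.421%, 0.391%, 0.416% and 0.383% in MCTR3, and 0.471%, 0.426%, 0.459% and 0.499% in vehicle. All PCTR3 and RCTR3 libraries lay below all MCTR3 libraries, and replicates 1 and 2 were the lowest in both groups. Relative to MCTR3 the log2 difference was -0.72 ± 0.16 (SE) in PCTR3, a fold of 0.606 (limma adjusted p = 0.0077), and -0.94 ± 0.16 in RCTR3, a fold of 0.522 (limma adjusted p = 0.0011). As a multiple of the median component it stood at 150 ± 37.5 times in PCTR3 and 128 ± 33.2 times in RCTR3, against 256 ± 8.17 times in MCTR3 and 310 ± 29.1 times in vehicle.

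comp124205_c0, of 1 transcript, at rank 94, left the 100 highest of every compound group. Its share was 0.0824%, 0.0784%, 0.110% and 0.0880% in PCTR3, 0.0789%, 0.0801%, 0.0924% and 0.0853% in RCTR3, 0.145%, 0.129%, 0.132% and 0.136% in MCTR3, and 0.151%, 0.141%, 0.169% and 0.178% in vehicle. Again no PCTR3 or RCTR3 library reached the MCTR3 range. Its log2 difference to MCTR3 was -0.60 ± 0.095 in PCTR3 (limma adjusted p = 0.0019) and -0.69 ± 0.095 in RCTR3 (limma adjusted p = 0.0005). By group mean it ranked 163 in PCTR3, 165 in RCTR3 and 107 in MCTR3.

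In the other direction, comp67743_c0 (rank 98, 1 transcript) took 0.212%, 0.261%, 0.173% and 0.218% in PCTR3, 0.252%, 0.207%, 0.191% and 0.216% in RCTR3, 0.147%, 0.163%, 0.154% and 0.164% in MCTR3, and 0.154%, 0.165%, 0.137% and 0.139% in vehicle. PCTR3 and RCTR3 lay above MCTR3 in every library by share. On the log2 scale it differed from MCTR3 by 0.45 ± 0.11 in PCTR3 (limma adjusted p = 0.010) and 0.46 ± 0.11 in RCTR3 (limma adjusted p = 0.0049). Relative to the median component the PCTR3 and MCTR3 libraries overlapped, at 130 ± 21.3 against 99.8 ± 6.85 times, with a limma adjusted p of 0.028.

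comp67430_c0 (rank 31, 1 transcript) took 0.390%, 0.429%, 0.313% and 0.443% in PCTR3, 0.394%, 0.397%, 0.394% and 0.388% in RCTR3, 0.269%, 0.305%, 0.289% and 0.288% in MCTR3, and 0.280%, 0.295%, 0.250% and 0.285% in vehicle. The 4 RCTR3 libraries were nearly equal, and the lowest PCTR3 library was only just above the highest MCTR3 library. Against MCTR3 the log2 difference was 0.44 ± 0.089 in PCTR3 (limma adjusted p = 0.0055) and 0.45 ± 0.089 in RCTR3 (limma adjusted p = 0.0022).

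comp104911_c0 (rank 20, 1 transcript) took 0.632%, 0.737%, 0.520% and 0.585% in PCTR3, 0.711%, 0.384%, 0.573% and 0.591% in RCTR3, 0.430%, 0.435%, 0.433% and 0.479% in MCTR3, and 0.418%, 0.433%, 0.402% and 0.400% in vehicle. PCTR3 was above MCTR3 in every library, while RCTR3 replicate 2 was below all of MCTR3. In log2 terms it stood above MCTR3 by 0.47 ± 0.14 in PCTR3 (limma adjusted p = 0.028) and 0.31 ± 0.14 in RCTR3 (limma adjusted p = 0.098). The PCTR3 call was lost relative to the median component (adjusted p = 0.071), on deposited TPM (0.058), without MCTR3 replicate 1, 2 or 3 (0.059 to 0.067) and without PCTR3 replicate 1 or 2 (0.067 and 0.11), and the limma adjusted p ran from 0.005 to 0.11 over all alternatives.

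**Figure D4:**
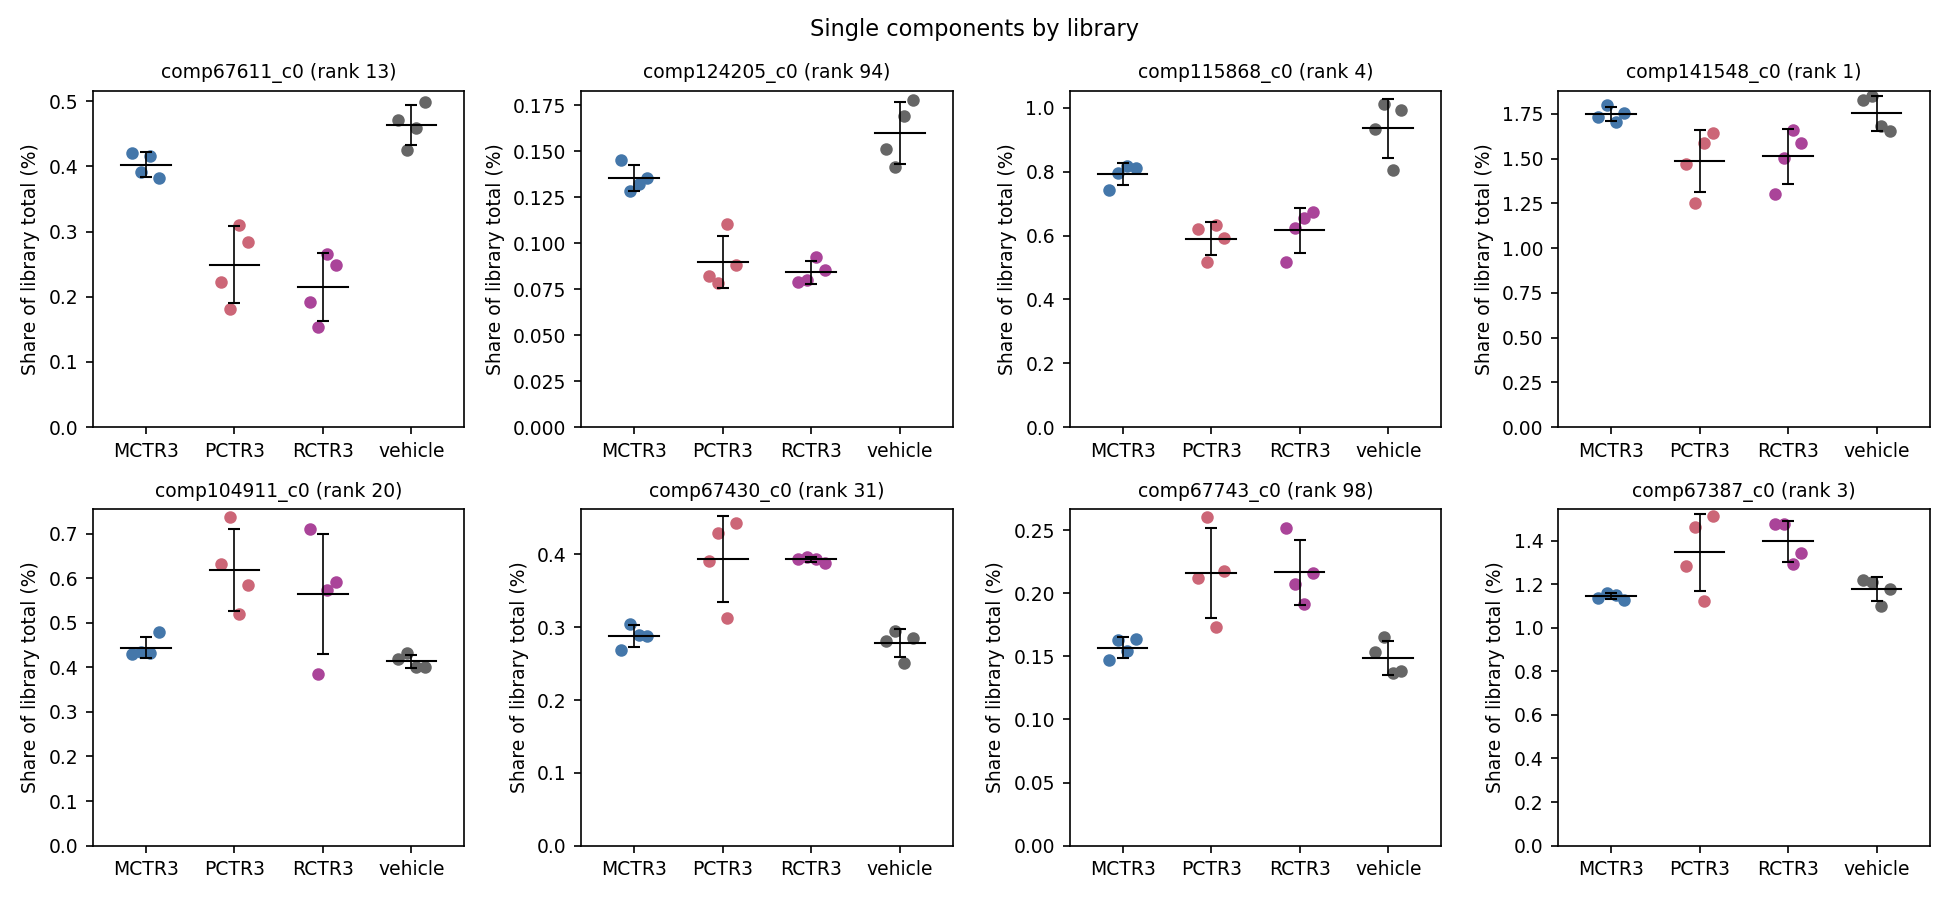
Share of the library total in percent (vertical axis, from 0) for 8 single components in MCTR3, PCTR3, RCTR3 and vehicle. Points are libraries, horizontal lines are means and error bars are SD (n = 4); the upper row shows components lower in PCTR3 and RCTR3 than in MCTR3 and the lower row components with higher means there, except that 1 PCTR3 library at rank 3 and 1 RCTR3 library at rank 20 lie below the MCTR3 libraries.

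The 5 highest components did not move together. The highest, comp141548_c0 with 2 transcripts, took 1.47%, 1.253%, 1.59% and 1.64% of all TPM in PCTR3, 1.30%, 1.505%, 1.66% and 1.58% in RCTR3, 1.73%, 1.80%, 1.70% and 1.75% in MCTR3, and 1.83%, 1.85%, 1.68% and 1.66% in vehicle. All PCTR3 and RCTR3 libraries were below all MCTR3 libraries. By share neither difference from MCTR3 passed: the log2 difference was -0.24 ± 0.092 in PCTR3 (limma adjusted p = 0.076) and -0.21 ± 0.092 in RCTR3 (limma adjusted p = 0.090). Relative to the median component both passed, with a log2 difference of -0.32 ± 0.11 in each (limma adjusted p = 0.047 in PCTR3 and 0.037 in RCTR3).

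The second, comp132328_c0 with 2 transcripts, took 1.58%, 1.503%, 1.55% and 1.34% in PCTR3, 1.45%, 1.52%, 1.43% and 1.49% in RCTR3, 1.35%, 1.61%, 1.53% and 1.46% in MCTR3, and 1.43%, 1.35%, 1.47% and 1.68% in vehicle. Every pair of groups overlapped. Its log2 difference from MCTR3 was 0.01 in PCTR3 (95% interval -0.17 to 0.18) and -0.01 in RCTR3 (95% interval -0.19 to 0.16). With the fall at rank 1, the 2 components had the same mean share of 1.49% in PCTR3.

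The third, comp67387_c0 with 1 transcript, went the other way. It took 1.29%, 1.46%, 1.12% and 1.51% in PCTR3, 1.48%, 1.48%, 1.29% and 1.34% in RCTR3, 1.14%, 1.16%, 1.15% and 1.13% in MCTR3, and 1.22%, 1.21%, 1.10% and 1.18% in vehicle. All RCTR3 libraries were above all MCTR3 libraries, whereas PCTR3 replicate 3 was below them. The log2 difference from MCTR3 was 0.29 ± 0.087 in RCTR3 (limma adjusted p = 0.022) and 0.22 ± 0.087 in PCTR3 (limma adjusted p = 0.080). Relative to the median component RCTR3 did not pass, at 0.18 ± 0.10 (limma adjusted p = 0.19).

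The fourth, comp115868_c0 with 1 transcript, took 0.621%, 0.518%, 0.632% and 0.593% in PCTR3, 0.516%, 0.622%, 0.654% and 0.673% in RCTR3, 0.744%, 0.795%, 0.818% and 0.813% in MCTR3, and 0.933%, 1.01%, 0.806% and 0.994% in vehicle. PCTR3 and RCTR3 were below MCTR3 without overlap, and MCTR3 overlapped the lower end of the vehicle range. The log2 difference from MCTR3 was -0.43 ± 0.094 in PCTR3 (limma adjusted p = 0.0075) and -0.37 ± 0.094 in RCTR3 (limma adjusted p = 0.0087).

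The fifth, comp85962_c0 with 1 transcript, took 0.682%, 0.680%, 0.830% and 0.9002% in PCTR3, 0.647%, 0.689%, 0.822% and 0.749% in RCTR3, 0.883%, 0.846%, 0.882% and 0.842% in MCTR3, and 0.907%, 0.849%, 0.808% and 0.844% in vehicle. PCTR3 replicates 1 and 2 were low and replicate 4 was above all MCTR3 libraries. The log2 difference from MCTR3 was -0.25 ± 0.093 in RCTR3 (limma adjusted p = 0.049) and -0.17 ± 0.093 in PCTR3 (limma adjusted p = 0.21).

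Between PCTR3 and RCTR3, 0 of the 100 components passed on either scale, where 0% of all components passed by share and 0% relative to the median component. On each scale 1 of the 100 had an unadjusted p under 0.05 in limma. Of all components, 3.18% did by share and 2.95% relative to the median component. Intervals were narrow for most: by share, the 95% interval of the difference lay within 1.5-fold in either direction for 99 of the 100 and within 1.25-fold for 89. The exception at 1.5-fold was comp123851_c0 at rank 10, with a log2 difference of 0.38 and an interval of -0.09 to 0.85, the component with the low RCTR3 replicate 2. For comparison, MCTR3 against vehicle had 98 intervals within 1.5-fold and 85 within 1.25-fold, and PCTR3 and RCTR3 against MCTR3 had 87 and 88 within 1.5-fold and 50 and 49 within 1.25-fold.

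The one with the lowest p between PCTR3 and RCTR3 was comp140138_c0 (rank 79), with 0.187%, 0.235%, 0.207% and 0.270% in PCTR3 and 0.184%, 0.204%, 0.194% and 0.188% in RCTR3. PCTR3 replicates 2 and 4 were high and replicate 1 lay inside the RCTR3 range. The log2 difference was 0.21, with a 95% interval of 0.01 to 0.41 and a limma adjusted p of 1.0. On the other side comp116012_c0 (rank 99) had 0.153%, 0.168%, 0.155% and 0.156% in PCTR3 and 0.159%, 0.193%, 0.164% and 0.159% in RCTR3, a log2 difference of -0.09 (interval -0.22 to 0.04, limma adjusted p = 1.0). The groups overlapped, and RCTR3 replicate 2 was the high value. At rank 13, where both compounds differed most from MCTR3, the log2 difference between PCTR3 and RCTR3 was 0.21 with an interval of -0.12 to 0.55.

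The balance among the transcripts of a component was not used to choose the list, and it was tested in all comparisons. The summed level that was used can rest mostly on 1 transcript, so tests of balance against vehicle are not fully free of the choice. For the 19 components with more than 1 transcript, the major transcript (the one with the highest mean over all libraries) made up between 23.6% and 98.3% of the component, with a median of 67.2%. It made up more than 50% in every library in 14 of them and averaged over 90% in 4. The tested value was the log2 ratio of the major transcript to the sum of the others, each with 1 TPM added, over 7172 components with several transcripts. Transcripts of a component share sequence, so the way reads were divided among them by the authors' estimate enters these values.

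Of the 19, 6 passed in PCTR3 against vehicle (2 with a higher and 4 with a lower share of the major transcript), where 8.32% of all such components passed. RCTR3 against vehicle also gave 6 (1 higher, 5 lower), where 13.4% passed. PCTR3 against MCTR3 gave 1 lower, where 1.41% passed, and RCTR3 against MCTR3 gave 1 higher and 1 lower, where 4.57% passed. In MCTR3 against vehicle 0 of the 19 passed (0% of all; 0 of the 19 and 410 of all at an unadjusted p under 0.05 in limma), and between PCTR3 and RCTR3 0 passed (0% of all; 0 of the 19 and 301 of all at an unadjusted p under 0.05).

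Balance calls of the components named here were followed through the alternatives, except those of comp128239_c0 against vehicle. Among the calls by share given above, those at ranks 3, 4 and 5 against MCTR3 were not followed through all alternatives. Nor was that at rank 31 in PCTR3 against MCTR3. The calls at rank 11 (log2 ratio of -0.55 in PCTR3 and -0.51 in RCTR3 against vehicle, limma adjusted p = 0.024 and 0.025) and at rank 53 (-0.39 in RCTR3 against vehicle, limma adjusted p = 0.042) fell outside the naming rule and were not followed.

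In comp105378_c0 (rank 81, 2 transcripts) the balance shifted away from the major transcript. Its major transcript made up 97.1%, 96.2%, 98.6% and 97.2% in PCTR3, 97.5%, 98.7%, 97.3% and 98.2% in RCTR3, 99.2%, 99.1%, 98.8% and 98.7% in MCTR3, and 99.1%, 99.1%, 99% and 99.4% in vehicle. Both PCTR3 and RCTR3 were below vehicle without overlap. The log2 ratio differed from vehicle by -1.58 ± 0.29 in PCTR3 (limma adjusted p = 0.0066) and by -1.23 in RCTR3 (limma adjusted p = 0.014), and each call held in every alternative tried. Against MCTR3 it differed by -1.32 in PCTR3 (limma adjusted p = 0.039) and by -0.97 in RCTR3 (limma adjusted p = 0.068), and the PCTR3 call was lost in 12 of 22 alternatives, including those without any 1 of the MCTR3 libraries.

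comp137449_c1 (rank 69, 3 transcripts) shifted toward its major transcript, chosen by the mean over all libraries, PCTR3 and RCTR3 included. At a mean of 33.1% in vehicle, this transcript was not the largest of the 3 there. This made up 41.0%, 41.5%, 37.6% and 42.0% in PCTR3, 41.6%, 46.5%, 39.5% and 41.0% in RCTR3, 33.6%, 34.2%, 33.9% and 35.4% in MCTR3, and 33.7%, 32.4%, 33.1% and 33.2% in vehicle. All 8 PCTR3 and RCTR3 libraries were above all 8 others. The log2 ratio was higher than in vehicle by 0.56 ± 0.12 in RCTR3 (limma adjusted p = 0.0087) and by 0.46 in PCTR3 (limma adjusted p = 0.028), and higher than in MCTR3 by 0.48 in RCTR3 (limma adjusted p = 0.034), with an adjusted p of 0.11 for PCTR3 against MCTR3. The call for PCTR3 against vehicle was lost without any 1 vehicle library and without PCTR3 replicate 1, 2 or 4, and that for RCTR3 against MCTR3 without any 1 MCTR3 library and without RCTR3 replicate 1, 2 or 4. All 3 calls were lost when only the 2 groups compared were fitted (limma adjusted p of 0.052, 0.088 and 0.11, for RCTR3 and PCTR3 against vehicle and RCTR3 against MCTR3).

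comp128239_c0 (rank 6, 2 transcripts) shifted away from its major transcript. This made up 61.7%, 59.8%, 66.1% and 61.5% in PCTR3, 61.3%, 62.7%, 62.2% and 62.3% in RCTR3, 70.8%, 68.0%, 69.5% and 69.3% in MCTR3, and 67.8%, 69.4%, 70.6% and 70.6% in vehicle. PCTR3 and RCTR3 were below the other 2 groups in every library. Relative to vehicle the log2 ratio was -0.47 in PCTR3 (limma adjusted p = 0.030) and -0.48 in RCTR3 (limma adjusted p = 0.021). Relative to MCTR3 it was -0.47 ± 0.12 in RCTR3 (limma adjusted p = 0.043), a call lost in 15 of 22 alternatives, and it did not pass in PCTR3 (limma adjusted p = 0.074).

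comp141858_c0 (rank 12, 5 transcripts) also shifted away from its major transcript. Its major transcript made up 40.2%, 33.9%, 45.8% and 41.1% in PCTR3, 34.9%, 44.6%, 42.2% and 40.4% in RCTR3, 50%, 48.7%, 49.4% and 47.6% in MCTR3, and 49.1%, 49.5%, 50.98% and 51.9% in vehicle. No PCTR3 or RCTR3 library reached the MCTR3 range. Against vehicle the log2 ratio was -0.60 ± 0.16 in PCTR3 (limma adjusted p = 0.033) and -0.58 in RCTR3 (limma adjusted p = 0.030). The PCTR3 call was lost without any 1 vehicle library, without PCTR3 replicate 1, 2 or 4 and when only the 2 groups were fitted. The RCTR3 call was lost without vehicle replicate 3 or 4, without RCTR3 replicate 1 or 4 and when only the 2 groups were fitted.

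**Figure D5:**
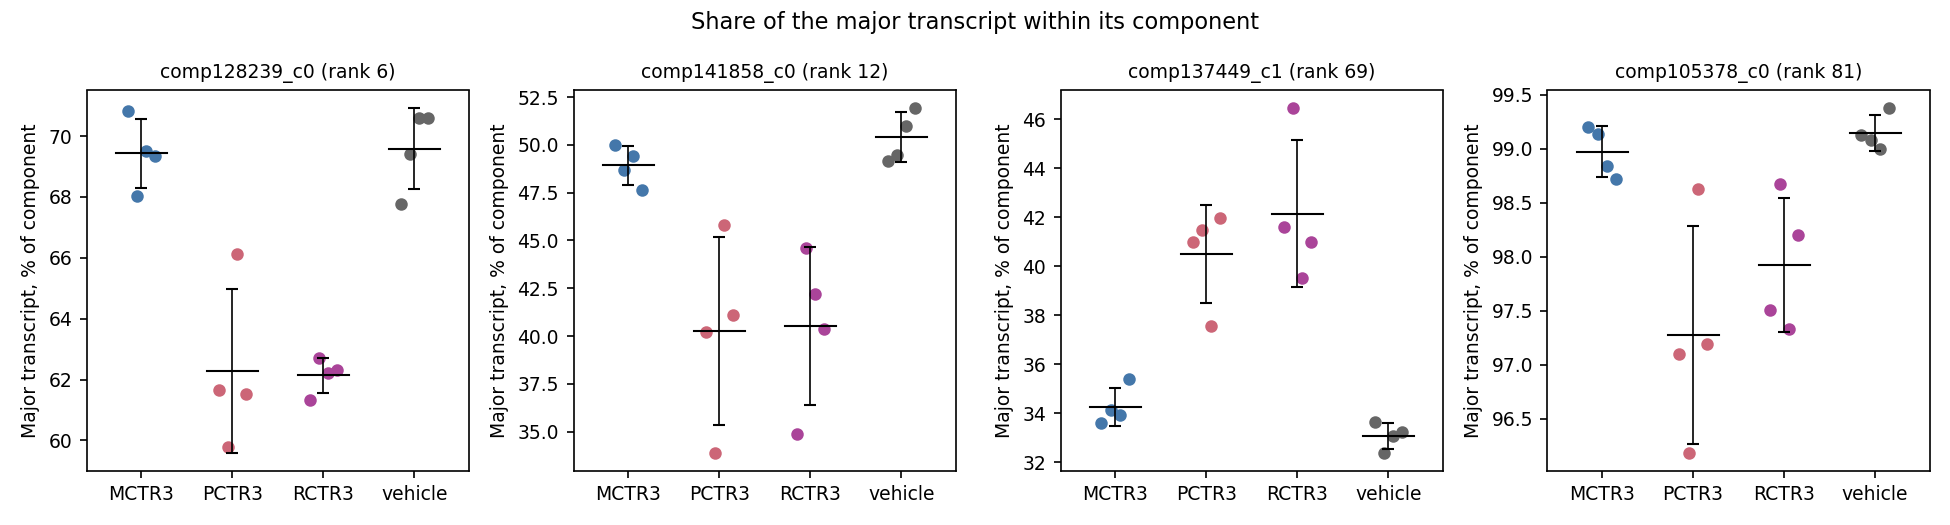
Share of the major transcript within its component, in percent (vertical axis, not starting at 0), for 4 components in MCTR3, PCTR3, RCTR3 and vehicle. Points are libraries, horizontal lines are means and error bars are SD (n = 4); at ranks 6 and 12 PCTR3 and RCTR3 lie below the other 2 groups, at rank 69 above them, and at rank 81 below vehicle.

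comp115929_c0 (rank 35, 2 transcripts) was the second of the 2 with a higher share in PCTR3 against vehicle. Its major transcript made up 96.6%, 96.8%, 95.6% and 96.3% in PCTR3, 96.9%, 95.4%, 93.6% and 94.7% in RCTR3, 94.4%, 93.3%, 93.9% and 94.2% in MCTR3, and 93.7%, 93.7%, 93.7% and 94.5% in vehicle. PCTR3 stood above vehicle and MCTR3 without overlap, while RCTR3 overlapped both. The log2 ratio was higher than in vehicle by 0.78 ± 0.19 in PCTR3 (limma adjusted p = 0.021), a call lost with a pseudocount of 0.1 (0.061) and without PCTR3 replicate 1 (0.061) or 2 (0.068). It did not pass in PCTR3 against MCTR3 (limma adjusted p = 0.059), and the difference between PCTR3 and RCTR3 was 0.38 (limma adjusted p = 1.0).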

How the data were processed

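The authors assigned reads to *D. japonica* transcripts and deposited log2 TPM for each library, per the labels. Per the submitters' processing notes the tools included kallisto and sleuth, whose versions and roles, like the transcript set, are not stated there. The file minimum (-34.92) was read as 0 TPM. Values were returned to TPM and summed per component (44857 transcripts, 16873 components). Each library was rescaled to a sum of 1000000, or divided by its median tested component. TPM keeps no read depth, so depth is unknown and precision rests on 4 libraries per group. Groups came from sample titles.

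The test was limma 3.58.1 (R 4.3.3) on log2(value + 1), with 4 group means over 16 libraries, an intensity trend and Benjamini-Hochberg adjustment over all 15762 components with at least 1 TPM in at least 4 libraries (7172 for balance within components). The pseudocount of 1 slightly understates change. The fit was run on simulated data with independent noise and known changes in a small part of the components in PCTR3. Data in which many components change, or library sums differ by group, were not simulated, so this does not check the calls. Named components are the 5 highest and, per comparison, up to 2 higher and 2 lower with the greatest change among those past the threshold whose groups do not overlap, or with the lowest p on a side where none qualified; ranks 9, 10 and 52 were added after their values were seen. The members and lists were chosen with earlier results of these data known. Alternatives were another scaling, pseudocount, filter, trend setting, set of groups, replicate block, list limit, and leaving out each library.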

Additional observations from a re-analysis of the deposited data

Results flagged for a closer look

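In 96 groups of 4 libraries looked at for the named components, 4 had a highest or lowest library whose gap to its neighbour exceeded Dixon's 95% critical value; chance gives about 1 in 20. The share of comp104911_c0 (rank 20) was 0.479% in MCTR3 replicate 4, against 0.430%, 0.433% and 0.435% in the other 3 MCTR3 libraries. For comp116012_c0 (rank 99) the share was 0.193% in RCTR3 replicate 2, against 0.159%, 0.159% and 0.164% in the other 3. The share of comp123851_c0 (rank 10) was 0.667% in PCTR3 replicate 1, against 0.720%, 0.720% and 0.721% in the other 3. Its low value in RCTR3 replicate 2 (0.259%) did not meet this limit, since the other 3 RCTR3 libraries were spread as well. The major transcript of comp115929_c0 (rank 35) made up 94.5% of its component in vehicle replicate 4, against 93.7%, 93.7% and 93.7% in the other 3.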

How the results depend on the processing

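No result reversed. With the 50 highest components in place of 100, the calls by share were 30 for PCTR3 and 33 for RCTR3 against vehicle. Against MCTR3 they were 21 for PCTR3 and 26 for RCTR3. With the 200 highest they were 108, 114, 63 and 84 in the same order. Of all components, 42.4%, 49.2%, 18.8% and 29.95% passed in that order. Taking the list by the median in vehicle gave the same 100 components, and by share over all 16 libraries 95 of them. The median log2 change of the 100 for MCTR3, PCTR3 and RCTR3 against vehicle, then PCTR3 and RCTR3 against MCTR3, was -0.11, -0.25, -0.32, -0.17 and -0.23 relative to the median component and -0.11, -0.23, -0.30, -0.15 and -0.21 on deposited TPM. With a library sum excluding the 100 it was -0.056, -0.15 and -0.19 against vehicle and -0.16 for RCTR3 against MCTR3. Balance calls among the 19 fell to 2 for PCTR3 and 1 for RCTR3 against vehicle, and to 0 for both against MCTR3, when only the 2 groups compared were fitted. Against MCTR3 they were 0 for PCTR3 with a pseudocount of 0.1, and 6 for each with a pseudocount of 10. The cause was not tested. The shares of all components under these settings for balance are not given.

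Leaving out 1 library gave calls by share of 47 to 58 for PCTR3 and 52 to 61 for RCTR3 against vehicle, 17 to 44 for PCTR3 and 32 to 48 for RCTR3 against MCTR3, and 0 to 0 for MCTR3 against vehicle and PCTR3 against RCTR3. For balance the ranges were 1 to 6, 2 to 6, 0 to 3 and 0 to 3 in that order. PCTR3 against vehicle gave 1 without PCTR3 replicate 1 or 2, 2 without PCTR3 replicate 4 or vehicle replicate 3 or 4 and 3 without vehicle replicate 2; RCTR3 against vehicle gave 2 without vehicle replicate 3 or 4 or RCTR3 replicate 1. PCTR3 against MCTR3 gave 0 without vehicle replicate 1 or 2, any 1 MCTR3 library or PCTR3 replicate 1, 2 or 4, 2 without RCTR3 replicate 1 or 3 and 3 without PCTR3 replicate 3. RCTR3 against MCTR3 gave 0 without any 1 MCTR3 library or RCTR3 replicate 1, 2 or 4, and 1 without vehicle replicate 1, 2 or 3, PCTR3 replicate 1 or 4 or RCTR3 replicate 3. For none of these counts, by share or for balance, is the share of all components without the library given. They are not set against components in general. The summed share ran from 30.1% to 30.2% in MCTR3, 28.7% to 29.0% in PCTR3, 28.3% to 28.6% in RCTR3 and 30.9% to 31.5% in vehicle.

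Over all components tested, same-numbered libraries of different groups had deviations correlated at -0.24 to 0.37 (median 0.03). For differently numbered libraries the range was -0.40 to 0.34 (median -0.023). A pairing between particular groups was not tested. In both PCTR3 and RCTR3 the summed share of the 100 was lower in replicates 1 and 2 than in replicates 3 and 4. With a replicate block, calls by share were 50 for PCTR3 and 56 for RCTR3 against vehicle and 31 for PCTR3 and 37 for RCTR3 against MCTR3. Balance calls with the block were 0 for PCTR3 and 1 for RCTR3 against MCTR3. The shares of all components with the block are not given.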
